A study of Caenorhabditis elegans with 2 samples.

Results

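The set described here is 722 promoter regions that lay just below the reproducibility threshold in a chromatin immunoprecipitation and sequencing (ChIP-seq) study of the homeodomain protein CEH-48 in the nematode Caenorhabditis elegans. They were chosen by signal and by position. The pooled list of 30000 regions, which the authors label as peaks and background, was ranked by signal. Its uppermost ranks are the authors' peaks that passed the irreproducible discovery rate (IDR), a measure of how well ranks repeat between replicates. The block of equal length just below was taken. Regions were kept when the summit lay in the promoter window of a protein-coding gene, here 1000 bp before to 200 bp after its 5′ end, and over 200 bp from any tRNA gene. In the block, 731 summits lay in promoter windows, and 9 of these were near a tRNA gene, which leaves 722 (39.2% of the block). They are called weaker promoter regions here. By the same rules of position 914 of the IDR peaks are IDR promoter regions, and the next block of the same length gave 531 promoter regions, called the next tier.

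The samples are 2 biological replicates, in 1 group, of whole late embryos of mixed sex. Their strain, OP631, is unc-119(tm4063) III and carries the transgene wgIs631. The embryos were collected 3.5 hours after a synchronized start by egg bleaching. The transgene encodes CEH-48 fused at the C-terminus to a GFP and FLAG tag. A description in the labels gives an antibody against GFP and the antibody tag gives ceh-48, and which was used is not settled. With an antibody against GFP, the data describe the tagged protein in all embryonic cells that make it. With one against CEH-48, they could also include untagged protein. An untagged strain or another condition was not analysed here, so every comparison is between regions of the same 2 replicates. How far the tag, the antibody or the strain sets the signal was not tested.

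CEH-48 belongs to the ONECUT family, whose members bind DNA through a cut domain and a homeodomain and share the core sequence ATCGAT. In C. elegans, CEH-48 is made throughout the nervous system, and the cut homeodomain proteins are known for acting on genes that all neurons express. A region in a ChIP-seq list is a place scored for how much more DNA was recovered than from the input. In a list that also holds background, as here, a region is not by itself an established binding site. The summit of a region is the point of highest recovery, and its signal does not say in which cells the protein was bound.

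The sequences of 6 members are printed to show how differently the core is set in them. The first 4 hold the most copies of ATCGAT, with ties taken by signal, and the last 2 have the highest signal among windows without it. Each is the 100 bp around the summit, 5′ to 3′ on the plus strand of ce11 (WBcel235), lies upstream of the gene with no exon base, and has ATCGAT in capitals. They were taken from 346 such windows on 5 of the 6 nuclear chromosomes, of which 49 hold ATCGAT.
vps-39, chrV:14038540-14038639: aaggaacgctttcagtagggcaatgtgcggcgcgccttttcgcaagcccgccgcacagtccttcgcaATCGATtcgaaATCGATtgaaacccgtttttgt
vha-11, chrIV:2315007-2315106: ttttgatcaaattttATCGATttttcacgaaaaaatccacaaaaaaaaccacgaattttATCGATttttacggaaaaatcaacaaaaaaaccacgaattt
ubc-26, chrII:2900657-2900756: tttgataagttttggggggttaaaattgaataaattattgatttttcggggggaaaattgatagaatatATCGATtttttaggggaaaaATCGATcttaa
tag-115, chrIV:13239453-13239552: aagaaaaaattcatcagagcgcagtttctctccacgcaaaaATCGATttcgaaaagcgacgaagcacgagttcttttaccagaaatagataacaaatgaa
sax-2, chrIII:5108916-5109015: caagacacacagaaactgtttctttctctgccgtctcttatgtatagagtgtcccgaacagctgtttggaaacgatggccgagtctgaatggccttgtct
Y39A3CL.7 and pvf-1, chrIII:1824681-1824780: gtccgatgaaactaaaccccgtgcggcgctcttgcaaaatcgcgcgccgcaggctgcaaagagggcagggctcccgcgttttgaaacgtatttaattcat
The window of vps-39, which encodes a subunit of the HOPS tethering complex of lysosomes, holds 2 copies in 53% GC. That of vha-11, a subunit of the vacuolar proton pump, also holds 2 copies, but in 25% GC, and its summit lies on repeat-masked bases, as does that of ubc-26, a ubiquitin-conjugating enzyme gene (2 copies, 28% GC). The window of pvf-1, which encodes a growth factor of the PDGF and VEGF kind, has 55% GC and holds a run of alternating C and G but no core.

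The signals that chose the members ran from 55.42 to 85.15, with a median of 66.36 and quartiles of 60.3 and 74.01, and are given as a description only. The signal is the authors' value for each region, its scale is not stated, and it is compared only within a list. The uppermost member had 85.15, and the last IDR peak, 1 rank above it, had 85.17. At the lower edge a member at rank 3676 had 55.42 and the first promoter region outside, at rank 3682, had 55.4. The set therefore has no gap at either edge. A separate IDR set that the authors called for the older ce10 build holds 1874 peaks with signals down to 84.1, and 16 members have a signal of at least that value. The authors' −log10 q-values of the members were 1.735 to 2.568, with a median of 2.226. IDR promoter regions had signals of 85.17 to 1044.5 (median 140.7) and the next tier 45.68 to 55.4 (median 49.43).

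The 12 members with the highest signal show how the replicates share these regions. The summit between dli-1, a dynein light intermediate chain gene, tin-9.2 and exos-4.1 lay 38 bp upstream of the nearest 5′ end, on chromosome IV from 13098645 to 13099014, with a signal of 85.15 pooled, 25.88 in replicate 1 and 59.59 in replicate 2. The one at sax-2, whose product is needed for neurite shape, had 85.15 pooled, 17.49 in replicate 1 and 66.54 in replicate 2, and lay 735 bp upstream. The summit at Y57E12AL.6 had 85.09 in the pooled list and 55.34 in replicate 2, and lay 208 bp from an IDR summit. The replicate 1 list had no summit within 100 bp of it. Within replicate 1 the sax-2 region ranked 5933 and the dli-1 region 2114, while in replicate 2 they ranked 1703 and 1996.

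For vps-39 the signals were 84.96 pooled, 26.55 in replicate 1 and 54.05 in replicate 2, with ranks of 2009 and 2338 in the replicates' own lists. The shared window of Y39A3CL.7 and pvf-1 had 84.95 pooled, 13.34 in replicate 1 and 77.1 in replicate 2, at ranks 12970 and 1380, so it was high in replicate 2 and low in replicate 1. The summit of xpo-1, the nuclear exportin gene, and uvs-1 had 84.76 pooled, 36.99 in replicate 1 and 50.35 in replicate 2, and an ATCGAT 4 bp away. The remaining 6 of the 12 were at tag-294 (84.75), T26C11.4 (84.61), the nuclear hormone receptor gene nhr-48 (84.59), T24G10.2 and disl-2 (84.56), trm-2A (84.55) and the nucleoside transporter gene ent-2 (84.49). In replicate 1 these 6 had signals between 21.92 at disl-2 and 39.58 at tag-294, and in replicate 2 between 45.23 at T26C11.4 and 75.15 at nhr-48. Of these 12 regions, 3 hold ATCGAT, those of Y57E12AL.6, vps-39 and xpo-1.

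Most members were found again in replicate 2 and fewer in replicate 1. A summit within 100 bp was present in the replicate 2 list for 705 members (97.65%) and in the replicate 1 list for 536 (74.24%). Both lists held 522 (72.3%), 183 were in replicate 2 only, 14 in replicate 1 only, and 3 in neither. Among IDR promoter regions both lists held 875 of 914 (95.73%). The pooled signal that chose both sets was made from these same replicates, so these counts describe the choice and carry no test.

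Ranks within each list separate the replicates further. The leading ranks of a replicate are taken here as the IDR and weaker blocks together, counted in its own list. The members found in replicate 1 ranked from 713 to 28235 there (median 4188.5), with signals of 9.331 to 48.49 (median 19.75). Those found in replicate 2 ranked from 1090 to 28555 (median 2721), with signals of 15.9 to 91.54 (median 49.5). The leading ranks of replicate 2 held 539 members (74.65%) and those of replicate 1 held 242 (33.52%). Both held 141 (19.53%), replicate 2 alone 398, replicate 1 alone 101, and neither 82. Of IDR promoter regions, the leading ranks of both held 778 (85.12%). In the block that corresponds to the IDR set, replicate 1 held 90 members, replicate 2 held 72, and 1 member was in both.

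**Figure D1:**
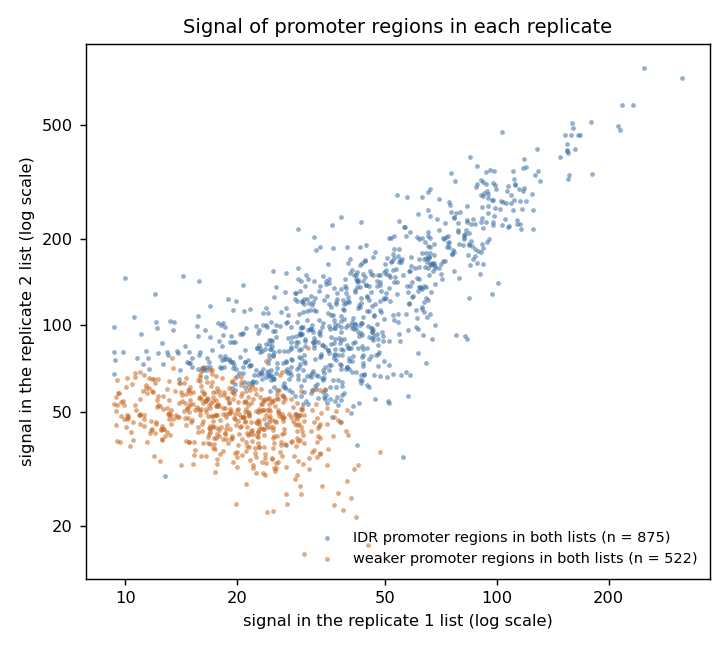
Signal of each promoter region in the replicate 1 list (x axis, log scale) and the replicate 2 list (y axis, log scale), for regions found within 100 bp in both lists. The 522 weaker promoter regions (orange) form the low corner of the cloud, below most of the 875 IDR promoter regions (blue). The edges of the orange cloud are set by the choice on the pooled signal.

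The cut homeodomain core ATCGAT was more frequent at weaker promoter summits than in the sequence beside them, and less frequent than at IDR promoter summits. The 100 bp summit window held it in 19.25% of the 722 members (95% exact binomial interval 16.44 to 22.32%), as did 80 of 1444 windows of the same length centred 500 bp to each side (5.54%, 4.417 to 6.848%). The odds ratio was 4.065 (95% interval 3.009 to 5.513, two-sided Fisher's exact p = 6.305e-22). IDR promoter summits had it in 361 of 914 windows (39.5%, 36.31 to 42.75%), so the odds at weaker summits were 0.3652 of theirs (0.2886 to 0.4611, Fisher's exact p = 4.472e-19). The core reads the same on both strands, so 1 search covers them. A match is a stretch of letters in the genome and no measure of binding, and the intervals cover counting of windows only.

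Other promoters give the scale of these shares. In 100 bp centred 100 bp upstream of each 5′ end, ATCGAT was in 857 of 19973 windows (4.291%), and in 372 of 12836 (2.898%) where no region of the pooled list lay in the promoter window. The next tier had it in 76 of 531 windows (14.31%, 11.45 to 17.58%), below the weaker regions by an odds ratio of 1.427 (1.042 to 1.965, Fisher's exact p = 0.02297). That difference no longer passed 0.05 with search windows of 60 or 200 bp, with shorter promoter windows (500 bp before to 100 bp after the 5′ end), or without summits on repeat-masked bases (odds ratios of 1.177 to 1.271, Fisher's exact p from 0.0919 to 0.43). It was larger when either replicate's own list was ranked (1.683 and 1.526).

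The share was lower in the weaker classes than in the IDR classes, and the classes on either side of the IDR threshold, at 27.83% (22.14 to 34.1%) and 21.84% (16.4 to 28.12%), have overlapping intervals. In classes of 460 ranks, the IDR promoter summits had it in 54.59, 40.17, 35.4 and 27.83% from the highest class to the lowest. The next 4 such classes, which make up the weaker block, had it in 21.84% of 206 regions, 20.22% of 183, 17.06% of 170 and 17.18% of 163. The intervals of these 4 classes overlap, and each lies above the 4.601 to 6.311% of its own flanks. Further down it was 14.31% in the next tier, 15.9% at ranks 5521 to 7360, 10.7% at ranks 7361 to 15000 and 6.633% at ranks 15001 to 30000, where the flanks had 3.648%. Promoter windows held 44.78% of all regions in the first weaker class and 35.43% in the last, against 49.13 to 50% in the 4 IDR classes.

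**Figure D2:**
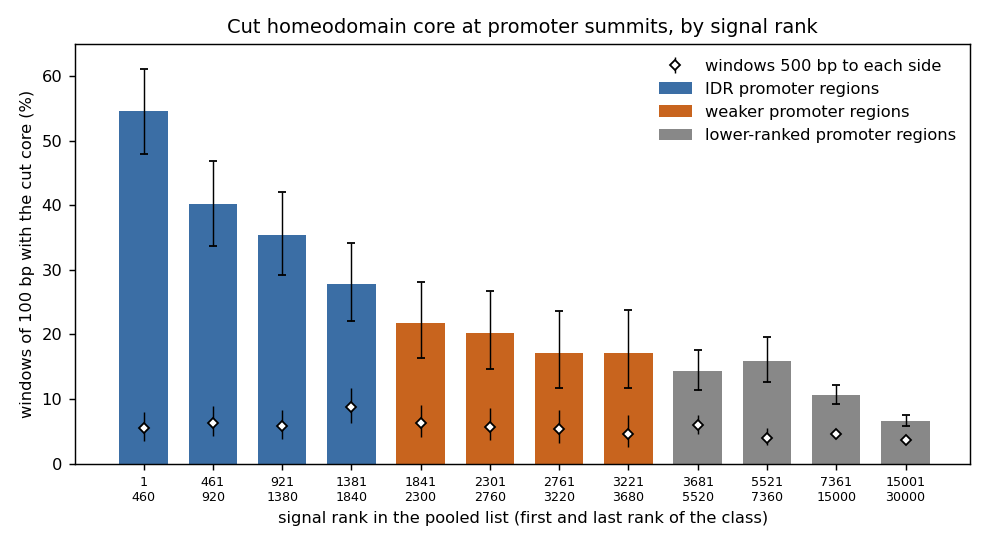
Share of 100 bp summit windows of promoter regions with ATCGAT (y axis, percent) in classes of signal rank of the pooled list (x axis, first and last rank). Bars are summit windows and open diamonds the windows 500 bp to each side, with 95% exact binomial intervals; the weaker classes (orange) fall between 21.84 and 17.06%, below the 4 IDR classes (blue) and above their flanks.

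The core also lay near the summit itself. In bins of 50 bp, it lay in 9.972% of members in the bin just left of the summit and in 10.8% in the bin just right of it, against 20.57 and 21.99% for IDR promoter regions. Among the 204 members with a copy within 100 bp, the nearest lay a median of 28.5 bp away, and within 25 bp in 47.55% (40.53 to 54.64%). For 419 such IDR promoter regions the median was 19 bp, and 65.63% (60.87 to 70.17%) had it within 25 bp. The summit is placed at the exact centre of the region in 721 of the 722 members and in 559 of 914 IDR promoter regions (61.16%), and its part in the wider spread was not tested. With a 200 bp search window, the odds ratio of weaker against IDR summits was 0.4715 (Fisher's exact p = 8.29e-13).

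**Figure D3:**
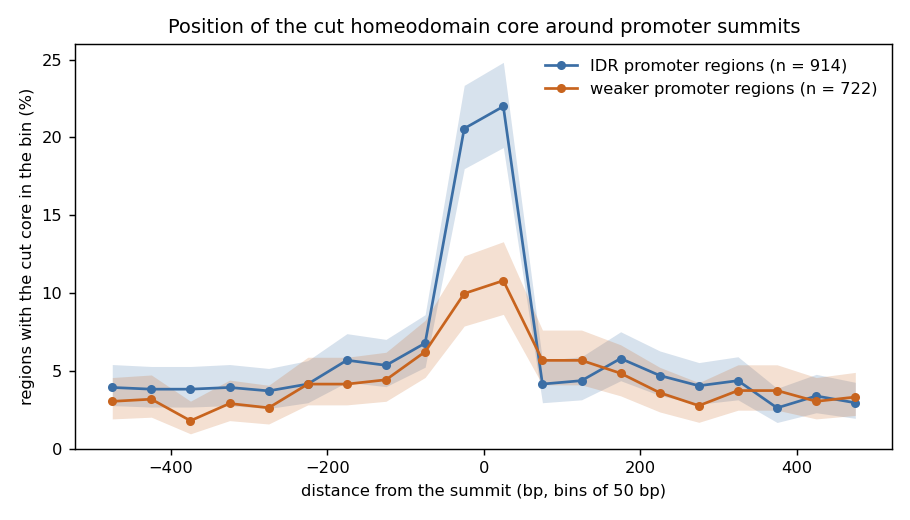
Share of promoter regions with ATCGAT in each 50 bp bin (y axis, percent) by distance from the summit (x axis, bp), with shaded 95% exact binomial intervals. The weaker regions (orange) peak at 10.8% beside the summit, and the IDR regions (blue) at 21.99%; both are lower in every bin farther out.

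Members with and without the core differed in base composition and in replicate. Members with ATCGAT had a median GC of 39% in the 100 bp window and the 583 without it had 46%, and 45.32% and 22.98% of them had the summit on repeat-masked bases. Of those with the core, 43.17% were in the leading ranks of replicate 1 and 69.06% in those of replicate 2. Of those without it, 31.22 and 75.99% were. These splits, chosen after their values were seen, are given as descriptions.

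Support by both replicates did not separate members by the core beyond counting error. It was in 32 of the 141 members in the leading ranks of both replicates (22.7%) and in 107 of the other 581 (18.42%), an odds ratio of 1.301 (0.8034 to 2.065, Fisher's exact p = 0.2835). Its share differed with an IDR summit nearby. Of the 60 members within 1000 bp of one, 24 had the core (40%, 27.56 to 53.46%), against 17.37% of the 662 farther away (odds ratio 3.171, 1.735 to 5.692, Fisher's exact p = 0.0001024). Without these 60, the odds ratio against flanks was 4.072, so the excess over flanks did not rest on them.

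The core also had different shares on either side of the gene start. It was in 36 of the 109 members downstream of the nearest 5′ end (33.03%) and in 103 of the 613 upstream (16.8%). Of members off repeats, 26.32% of 76 downstream and 12.47% of 449 upstream had it. On repeat-masked bases it was in 63 of 197 members (31.98%), against 14.48% of the other 525. These splits by side and by repeat are descriptions and were not tested. Without the repeat-masked summits, the odds ratio against flanks was 3.062 (Fisher's exact p = 1.63e-09) and against IDR promoter summits 0.2832 (Fisher's exact p = 1.57e-19).

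When each replicate's own list was ranked in the same way, the core had nearly the same shares in both. In replicate 1, the weaker block held 595 promoter regions, of which 20.17% had ATCGAT, against 6.555% of flanks and 38.93% of the promoter regions in the block above. In replicate 2 there were 705, with 19.15%, 6.454% and 35.9%. The pooled members were matched more often in replicate 2: 149 of the 722 members (20.64%) had a summit within 100 bp in the same block of replicate 1 and 465 (64.4%) in those of replicate 2.

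A scan of all 6-mers, with strands merged, found, beside the core, sequences rich in G and C. At weaker promoter summits 328 6-mers (15.8%) were more frequent than in flanks and 238 (11.4%) less frequent, by Fisher's exact tests with Benjamini-Hochberg adjustment over all 6-mers. These counts rest largely on replicate 2: its own list gave 308 and 232, and that of replicate 1 gave 52 and 9. The summit windows had a median GC of 45% (quartiles 38 and 50) and the flanks 36%. The shift in base composition between a promoter and its surroundings was not separated from these counts.

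By p, ACGCGC came first, in 79 summit windows (10.94%) against 1.385% of flanks (odds ratio 8.748, adjusted Fisher's exact p = 6.215e-19), and ATCGAT second (adjusted p = 6.557e-19). They were followed by AGCGCG in 10.8% against 1.731%, AGAGAG in 14.54% against 3.601%, and GAGCGC in 11.36% against 2.285%, with adjusted Fisher's exact p of 1.399e-16, 2.684e-16 and 6.212e-15. Around all promoters they were in 2.208% (ACGCGC), 1.853% (AGCGCG), 7.235% (AGAGAG) and 1.953% (GAGCGC) of windows. The 3 of these made mostly of G and C overlap one another in sequence, so they are not independent counts.

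The difference between weaker and IDR promoter summits was led by the core and by 6-mers that share most of it. Between both sets, 10 6-mers (0.481%) were less frequent at weaker summits and 3 (0.144%) more frequent. ATCGAT led (odds ratio 0.3652, adjusted Fisher's exact p = 9.302e-16), followed by its neighbours TATCGA (16.62% against 29.43%, odds ratio 0.478), AATCGA (25.21% against 38.95%, 0.5283) and CATCGA (4.986% against 12.25%, 0.3758), with adjusted Fisher's exact p of 1.088e-06, 2.61e-06 and 0.0001162. TATTGA followed, at 16.07% against 24.51% (odds ratio 0.5896, adjusted Fisher's exact p = 0.01208). The 3 more frequent ones, named after their values were seen, were CTGAAA (14.68% against 8.206%), AATTTG (14.82% against 8.534%) and ACTCCA (4.017% against 1.094%), and 0 were called with the shorter promoter windows.

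The 3 GC-rich 6-mers named above and AGAGAG did not pass that test. ACGCGC was in 10.94% of weaker and 13.89% of IDR promoter summit windows (odds ratio 0.7614, 95% interval 0.5566 to 1.037, adjusted Fisher's exact p = 0.5518). AGCGCG was in 10.8 and 11.38% (0.9433, 0.6813 to 1.302), GAGCGC in 11.36 and 12.25% (0.9175, 0.6685 to 1.255), and AGAGAG in 14.54 and 16.63% (0.8531, 0.6441 to 1.127). The intervals of these 4 leave room for ratios from about 0.56 to 1.3, so equal shares are not shown. In replicate 1's own list ACGCGC was lower in the weaker ranks, at 5.546% against 11.43% (odds ratio 0.4551, adjusted Fisher's exact p = 0.01041). In replicate 2's it was in 10.07% against 14.64% (odds ratio 0.6528, adjusted Fisher's exact p = 0.2071). In replicate 1's list the odds ratios were 0.5115 (AGCGCG), 0.5526 (GAGCGC) and 0.5989 (AGAGAG), with adjusted Fisher's exact p from 0.05656 to 0.07596. In replicate 2's list they were 0.8269, 0.769 and 0.8179, and none passed in either list.

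ATCGAT and the GC-rich sequences were mostly on different members. At least 1 of the 3 leading GC-rich 6-mers was in 157 members (21.75%). It was in 7.91% of the members with ATCGAT and in 25.04% of those without, while among IDR promoter regions these shares were 20.22 and 29.66%. None of the 5 leading sequences was in the 100 bp window of 363 members (50.28%), compared with 314 IDR promoter regions (34.35%). These shares are descriptions of windows that differ in GC content, and were not tested.

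Weaker summits, like IDR promoter summits, were densest in the 200 bp upstream of a gene start. The median distance to the nearest 5′ end was 198 bp (182 bp for IDR promoter regions), and 613 members (84.9%) lay upstream of it. The bin from 200 to 100 bp upstream held 19.25% of members and 22.87% of IDR promoter regions, and the 100 bp just upstream held 16.07 and 20.46%. From 100 to 200 bp downstream the shares were 5.679 and 2.735%. Within 200 bp of the 5′ end on either side lay 364 members (50.42%) and 495 IDR promoter regions (54.16%; odds ratio 0.8607, 95% interval 0.7044 to 1.052, Fisher's exact p = 0.135). In replicate 1's own list this odds ratio was 0.7701 (Fisher's exact p = 0.0159).

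Fewer weaker summits lay between or among several gene starts. The window of more than 1 gene held 189 members (26.18%, 23 to 29.55%) and 314 IDR promoter regions (34.35%, 31.28 to 37.53%), an odds ratio of 0.6776 (0.5431 to 0.8445, Fisher's exact p = 0.0003702). With the shorter promoter windows it was 0.9717 (Fisher's exact p = 0.844). Repeat-masked bases lay under the summit of 197 members (27.29%) and 219 IDR promoter regions (23.96%; odds ratio 1.191, 0.9462 to 1.498, Fisher's exact p = 0.1371), and this ratio passed the threshold in each replicate's own list (1.426 in replicate 1 and 1.306 in replicate 2).

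**Figure D4:**
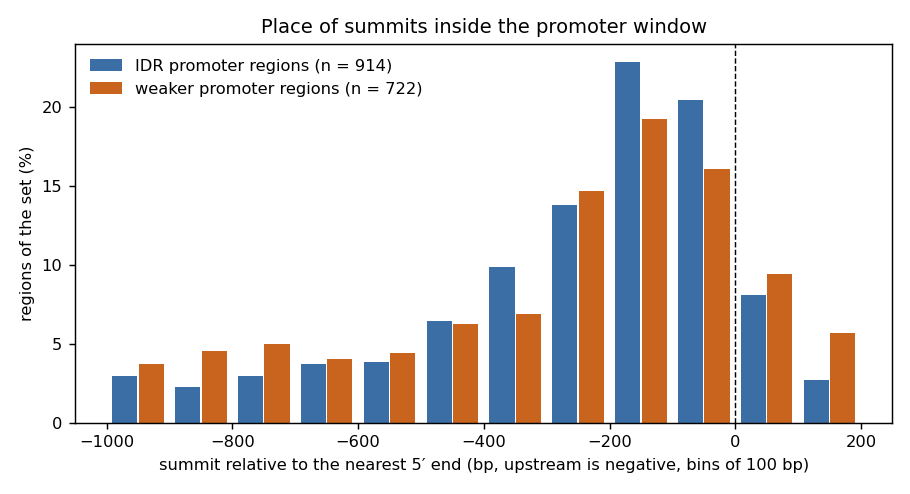
Share of promoter regions (y axis, percent) by the place of the summit relative to the nearest 5′ end (x axis, bp, upstream negative, bins of 100 bp). Both sets are densest from 200 to 100 bp upstream, with 19.25% of the 722 weaker regions (orange) and 22.87% of the 914 IDR regions (blue).

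A difference between weaker and IDR promoter regions in their chromosomes was not detectable at these counts. There were 147 members on chromosome I, 113 on II, 147 on III, 110 on IV, 97 on V and 14.96% of all members on X. Against IDR promoter regions 0 of 6 chromosomes passed an adjusted Fisher's exact test, none had an unadjusted p under 0.05, and the lowest unadjusted p was 0.4297. Chromosome V, with 25% of protein-coding genes, held 13.43% of members and 12.69% of IDR promoter regions.

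The members lay in the promoter windows of 910 genes, 4.56% of the 19973 protein-coding genes. This share is set by the ranks chosen and is the background for the gene lists that follow. Of the 910 genes, 894 had 1 member and 16 had 2. An IDR promoter summit was also in the window of 53 of them, which is 5.824% of the 910 and 4.334% of the 1223 genes with an IDR promoter summit, and 6.123% of all genes have one. The weaker ranks thus add 857 genes, and 10.41% of all genes have either kind. In 24 members an IDR summit lay within 500 bp and in 0 within 100 bp. Gene lists are described by their counts, with no test, and a gene with a region in its window is not shown to be regulated by it. For lists with few such genes the interval of the share is wide. It includes the 4.56% of all genes for, among others, the translation factor, aminoacyl-tRNA synthetase, small GTPase, spliceosome and nuclear pore lists. The same holds for the motor and tubulin, respiratory chain, Mediator, muscle, ceh and lin lists.

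Cytosolic ribosomal protein genes had the highest share of the lists counted in the pooled list, but not in replicate 1's own list. A weaker region was in the window of 22 of 78 of these genes (28.21%, 18.59 to 39.53%), an IDR region in that of 30 (38.46%), and either in that of 51 (65.38%). These 22 genes have 19 regions, since rpl-24.1 and rps-10, rps-14 and rpl-36, and rps-30 and rpl-39 share theirs. Of the 19 regions 18 were in the leading ranks of replicate 2 and 5 in those of replicate 1, 13 were found in replicate 1 at all, and 15 had a second gene's window over them. For all members these shares were 74.65%, 33.52%, 74.24% and 26.18%. Counted from each replicate's own list the share of ribosomal protein genes was 26.92% in replicate 2 and 10.26% in replicate 1. In replicate 1 it lay below those of motor and tubulin genes (16.28%), nuclear pore and transport genes (13.51%) and 5 further lists. The core ATCGAT was in 1 of the 19, at rps-6.

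The strongest of these lay 518 bp upstream of rpl-30, a large subunit protein gene, and also beside pab-1, which encodes the poly(A) binding protein, with signals of 82.49 pooled, 32.24 in replicate 1 and 46.13 in replicate 2. At rps-15 the signal was 82.41 pooled and 71.64 in replicate 2, with no summit within 100 bp in replicate 1. At rpl-29 it was 82.17 pooled, 16.62 in replicate 1 and 63.75 in replicate 2, and at rps-6 80.78, 29.77 and 59.13. Ranks in replicate 1 were 1420 for rpl-30, 6924 for rpl-29 and 1610 for rps-6, so the genes differ in how far that replicate supports them. At rpl-2 a member of signal 72.54 lay in a window with an IDR summit of 273.4.

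Other parts of protein synthesis and turnover had lower shares, and many of their regions lay in windows of more than 1 gene. Of all members 26.18% lay in such windows, which held 7 of 8 mitochondrial ribosome regions and 4 of 5 synthetase regions. Such windows also held 3 of 4 translation factor regions and 2 of 5 proteasome regions. Mitochondrial ribosomal protein genes had 9 of 70 (12.86%; IDR 15.71%), led by mrps-10, with 80.03 pooled, 15.98 in replicate 1 and 61.59 in replicate 2, followed by mrpl-35 (71.22), mrpl-49 (69.11) and mrpl-44 (67.54). The mrpl-49 region is also counted in the cytosolic ribosomal protein list. Aminoacyl-tRNA synthetase genes had 4 of 32 (12.5%; IDR 9.375%), namely hars-1 (66.72), fars-1 (66.06), aars-2 (64.8) and mars-1 (62.26). Translation factor genes had 4 of 39 (10.26%; IDR 35.9%), namely eif-3.D (84.35), eif-2A (80.69), eif-1.A (71.04) and eef-2, the elongation factor gene (66.16). None of the regions of these last 2 lists was in the leading ranks of replicate 1, which held 33.52% of all members. The named regions at hars-1, aars-2 and eef-2 were found in replicate 2 only, and that at mars-1 in neither replicate's list. Proteasome genes had 5 of 33 (15.15%, 5.109 to 31.9%; IDR 12.12%), with the ATPase genes rpt-2 (82.55 pooled, 55.28 in replicate 2, not found in replicate 1) and rpt-6 (68.57) and the core subunit genes pbs-1 (77.18) and pbs-3 (76.09) the strongest.

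Vacuolar proton pump genes had 4 of 20 (20%, IDR 35%; 15% in replicate 2's own list and 10% in replicate 1's). The region at vha-4 had 83.98 pooled, 28.73 in replicate 1 and 47.88 in replicate 2, and that at vha-11, whose sequence is printed above, had 80.84, 48.49 and 36.19. The vha-11 region ranked 713 in replicate 1, the highest of all members there, and 5064 in replicate 2. The others were vha-14 (64.89) and vha-13 (61.6). Endosomal sorting genes had 7 of 38 (18.42%, IDR 31.58%), led by vps-39, then vps-60, a member of the ESCRT-III family (82.62), snx-1, a retromer sorting nexin (81.16), and vps-4, the ATPase that takes ESCRT-III apart (74.35). Of the 8 regions of this list 5 were in the leading ranks of replicate 1 and 7 in those of replicate 2. Small GTPase genes had 4 of 37 (10.81%, IDR 21.62%; 5.405% in each replicate's own list), namely arf-5 (83.76), rab-35 (56.15), rab-11.1 (56.05) and rab-14 (55.73), the last in a window that also holds an IDR summit of 110.5. The rab-11.1 region is also counted in the cytosolic ribosomal protein list.

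Chaperone genes had 9 of 81 (11.11%; IDR 25.93%), led by dnj-29 (80.72), the prefoldin gene pfd-1 (80.27), the cyclophilin gene cyn-4 (80.1) and hsp-3, an endoplasmic reticulum HSP70 gene (62.07). The window of dnj-29 also holds an IDR summit of 173.3. The cyn-4 region had 91.54 in replicate 2, the highest of all members there, and no summit within 100 bp in replicate 1. None of the 8 chaperone regions was in the leading ranks of replicate 1 (33.52% of all members). Windows of more than 1 gene held 6 of the 8 (26.18% of all members). RNA processing and nuclear transport had 5 of 48 spliceosome genes (10.42%; IDR 31.25%), led by rnp-1 (77.18), lsm-6 (68.85), prp-31 (66.81) and prp-6 (63.77). They had 4 of 37 nuclear pore and transport genes (10.81%; IDR 32.43%), namely npp-25 (80.03), the importin gene ima-3 (77.68), npp-12 (69.44) and npp-16 (69.16). The npp-25 region is the same as that of mrps-10, and 3 of the 4 nuclear pore regions lay in windows of more than 1 gene. Motor and tubulin genes had 5 of 43 (11.63% in both sets), with dli-1, the tubulin gene tbb-1 (78.23), the kinesin gene klp-13 (71.19) and the dynactin gene dnc-1 (61) the strongest. The window of dnc-1 also holds an IDR summit of 120. Respiratory chain genes had 2 of 38 (5.263%; IDR 23.68%), ucr-2.2 (78.7) and cox-6A (78.48), and Mediator and related genes 2 of 37 (5.405%; IDR 27.03%), mdt-1.2 (60.75) and taf-11.3 (56.66).

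**Figure D5:**
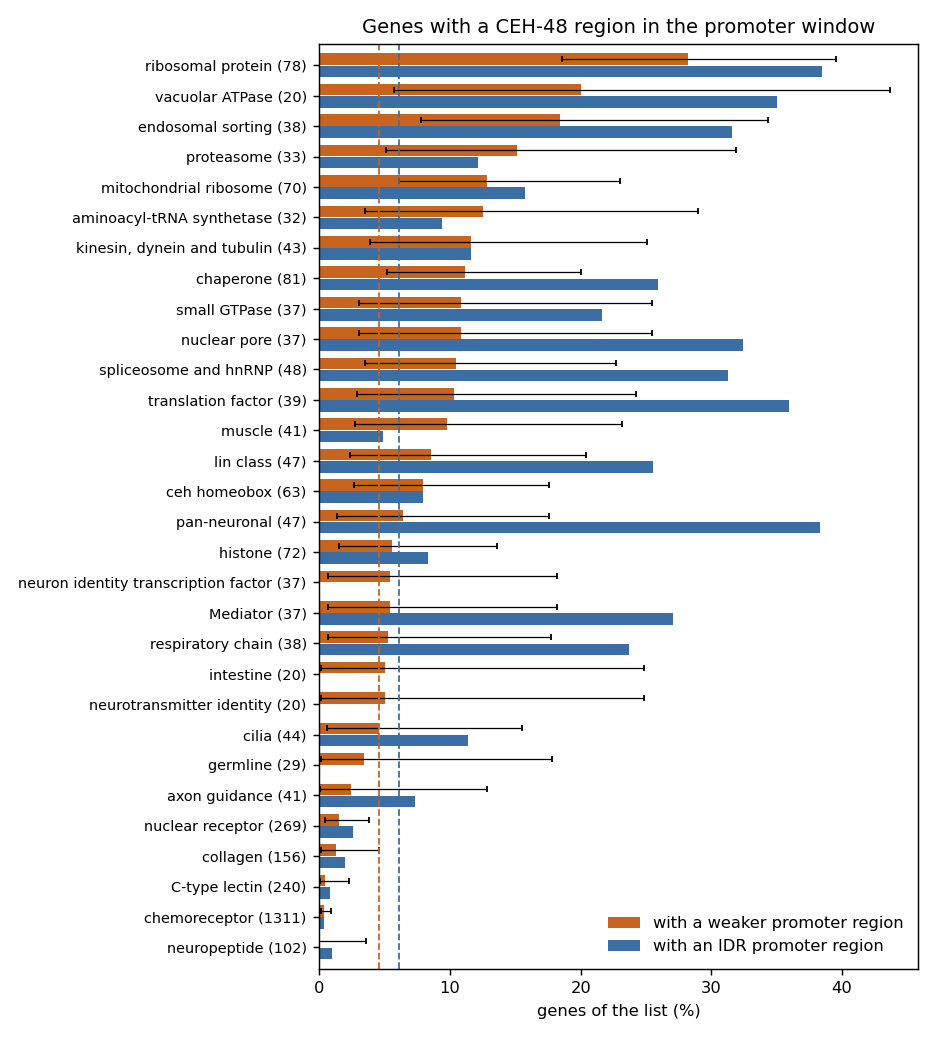
Share of the genes of each list (y axis, number of genes in parentheses) with a weaker region (orange, with 95% exact binomial intervals) or an IDR region (blue) in the promoter window (x axis, percent). Dashed lines are the shares over all protein-coding genes, 4.56% for weaker and 6.123% for IDR regions; ribosomal protein genes reach 28.21% and chemoreceptor genes 0.3814%.

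Genes that all neurons use had weaker regions at a share not told apart from that of all genes, beside many IDR regions. A weaker region was at 3 of 47 pan-neuronal genes (6.383%, 1.336 to 17.54%) and an IDR region at 18 (38.3%). The wide interval of the weaker share includes the 4.56% of all genes. Counted from each replicate's own list the weaker share was 8.511%, and with the shorter promoter windows 4.255%. The 3 genes were sad-1, which encodes a kinase of presynaptic assembly, with 72.78 pooled, 24.37 in replicate 1 and 46.22 in replicate 2; ida-1, a dense-core vesicle protein gene, with 65.62, 18.05 and 44.24; and maco-1, the macoilin gene, with 62.34, 26.75 and 42.23. None of these held ATCGAT in the window, and none had an IDR summit in its window. All were found in both replicates.

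Lists for single neuron classes and neuronal structures had shares near or below the 4.56% of all genes. Neuron identity transcription factor genes had 2 of 37 (5.405%; IDR 0; 2.703% in replicate 2's own list and 0 in replicate 1's), unc-37, the Groucho corepressor gene (80.59 pooled, 29.86 in replicate 1, 50.7 in replicate 2), and the LIM homeodomain gene lin-11 (57, 17.9 and 41.15), whose summit lay 5 bp upstream of its 5′ end. Neurotransmitter identity genes had 1 of 20 (5%; IDR 0), unc-25, the enzyme gene for GABA synthesis, with 77.5 pooled, 20.99 in replicate 1 and 54.37 in replicate 2, 81 bp downstream of the 5′ end. Cilia genes had 2 of 44 (4.545%; IDR 11.36%), mksr-2 (74.31) and nphp-1 (63.35), and axon guidance genes 1 of 41 (2.439%; IDR 7.317%), unc-73 (56.22). Of 102 neuropeptide genes 0 had a weaker region, for which the exact binomial interval reaches 3.552%. Chemoreceptor genes had 5 of 1311 (0.3814%; also 5 with an IDR region), led by str-246 (66.81), sri-54 (62.69), srr-10 (59.51) and srj-26 (57.38).

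Of the 5 cut homeobox genes on the list counted, which leaves out ceh-44 and ceh-49, ceh-39 alone had a weaker region. It lay 261 bp upstream of ceh-39 on chromosome X from 1856248 to 1856617, without ATCGAT, with signals of 60.41 pooled (rank 3148), 28.94 in replicate 1 (rank 1717) and 42.72 in replicate 2 (rank 3596). No weaker region lay in the windows of ceh-48 itself, ceh-21, ceh-41 or ceh-38, and ceh-38 has an IDR summit. Among genes with a ceh name 5 of 63 had a weaker region (7.937% in both sets), and beside ceh-39 the strongest were ceh-74 (70.62), the PBX family gene ceh-20 (66.85), not found in the replicate 2 list, and ceh-58 (63.8), not found in that of replicate 1. The lin class had 4 of 47 (8.511%; IDR 25.53%), with lin-8 (76.95), lin-15B (76.89), lin-46 (59.91) and lin-11. Nuclear receptor genes had 4 of 269 (1.487%), namely nhr-48, nhr-122 (77.58), nhr-86 (61.77) and nhr-78 (58.88).

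Genes of other tissues had shares below and above the background, on few genes. Muscle genes had 4 of 41 (9.756%, 2.723 to 23.13%), an interval that includes the 4.56% of all genes. Their IDR share was 4.878%. The weaker share was 17.07% in replicate 2's own list and 7.317% in replicate 1's. The 4 genes were pat-6 (67.76), the actin gene act-2 (67.66), the tropomyosin gene lev-11 (61.61) and the cofilin gene unc-60 (60.13). Each region was in the leading ranks of replicate 2 (74.65% of all members) and none in those of replicate 1 (33.52%). The intestine list had 1 of 20, erm-1 (63.98), and the germline list 1 of 29, spo-11, the gene for the enzyme that cuts meiotic DNA (84.24 pooled, 34.78 in replicate 1, 51.58 in replicate 2), whose region is shared with swsn-4. Collagen genes had 2 of 156, col-71 (82.16) and col-2 (69.32), C-type lectin genes 1 of 240, clec-113 (69.36), and histone genes 4 of 72, his-62 and his-61 at a shared summit (73.84), his-42 (60.02) and the linker histone gene his-24 (57.92). Near-identical histone copies may share reads, and the data do not tell in which tissue any of these regions was bound.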

How the data were processed

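The deposited region lists are in narrowPeak format for the ce11 build. Per the deposited read-me files, regions were called from each replicate and from both pooled, against an input file shared by all lists. Which aligner, caller and IDR threshold were used is not stated in the labels or files. The signal of a region and its −log10 q-value are the authors' deposited values, and the signal served to rank regions within a list. Read numbers are not in the lists, so the depth is unknown and intervals (95% exact binomial for shares) cover counting only. Nearby regions are not fully independent, and p-values leave variation between embryo batches uncovered. The lists of the ce10 build were left out, apart from the size and lowest signal of its IDR set, also a deposited signal value.

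Coordinates were read with the WBcel235 sequence, which is ce11, and with Ensembl release 115 (19973 protein-coding and 612 tRNA genes on the 6 nuclear chromosomes). Weaker regions are ranks 1841 to 3680 of the pooled list by signal, IDR regions ranks 1 to 1840 (exactly the deposited IDR set), and the next tier ranks 3681 to 5520. Regions of different lists with summits within 100 bp were matched. Two-sided Fisher's exact tests compared shares, with Benjamini-Hochberg adjustment over 2080 6-mers or 6 chromosomes at 0.05. The 6-mer scan alone was also tried on promoter windows of randomly drawn genes, with and without planted ATCGAT. The groups are region sets of 1 group of samples. The members, gene lists and tests were chosen with earlier results of these data known. Named genes are those at the 12 members with the highest signal, up to 4 per list by signal, cut homeobox genes and genes of printed sequences. Named 6-mers are the 5 with the smallest p in each scan. The genes rpl-2, rpl-24.1, rps-10, rps-14, rpl-36, rps-30 and rpl-39 were added once values were known. Other settings tried were different search, promoter and flank windows, transcript starts, ATYGAT (Y is C or T), leaving out clustered, neighbouring or repeat-masked summits, narrower ranks, and each replicate's own list. Computation used Python 3.11.15, scipy 1.17.1, pandas 2.3.3, numpy 2.4.6 and, for plots, matplotlib 3.10.9.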

Additional observations from a re-analysis of the deposited data

How the results depend on the processing

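The excess of ATCGAT over flanks (odds ratio 2.802 to 4.723) and its deficit against IDR promoter summits (0.2832 to 0.4715) kept their direction and passed 0.05 in every alternative run. The difference from the next tier no longer passed with a 60 bp search window (odds ratio 1.271), a 200 bp one (1.253), promoter windows of 500 bp before to 100 bp after the 5′ end (1.218) or without repeat-masked summits (1.177). With these shorter promoter windows the odds ratio for windows of more than 1 gene was 0.9717 and 0 6-mers were higher than at IDR summits. The cause of these changes was not tested. With each replicate left out in turn, the odds ratio ranged from 0.7701 to 0.9292 for summits within 200 bp of a 5′ end and from 1.306 to 1.426 for repeat-masked bases. The 6-mers higher than in flanks ranged from 52 to 308 and those lower from 9 to 232, and against IDR summits from 5 to 25 higher and from 9 to 25 lower. Chromosome odds ratios that passed no test crossed 1: II at 1.001 and IV at 0.888 without replicate 1, II at 1.121 and IV at 0.9775 without replicate 2, and II at 1.028 and X at 1.013 with the shorter windows. Shares of gene lists rest on few genes, and several moved by over 1.5 times. From replicate 2's own list, nuclear pore genes had 18.92%, cilia genes 2.273% and germline genes 6.897%, and from replicate 1's, aminoacyl-tRNA synthetase genes had 6.25%, axon guidance genes 7.317%, histone genes 2.778% and the cut homeobox and intestine lists 0. Nuclear receptor genes had 0.7435% in each. Collagen genes had 2.564% in replicate 2's and 0.641% in replicate 1's, and chemoreceptor genes 0.1526% in replicate 2's. With the shorter windows spliceosome genes had 6.25%, motor and tubulin genes 6.977%, ceh homeobox genes 4.762% and chemoreceptor genes 0.07628%. ATCGAT by support in the IDR-sized top block of both replicates gave no value, since 1 member is there. No paired analysis was possible because there is 1 group. Depth is unknown, so what it limits cannot be said.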
